A study of Mus musculus with 3 samples.

Results

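Macrophages that take up large amounts of lipid share a recognisable set of transcripts, and 10 genes of that set were followed here: Apoe, Lpl, Lipa, Trem2, Tyrobp, Gpnmb, Spp1, Plin2, Fabp4 and Fabp5. They were taken by gene symbol, and each symbol matched 1 of the 55536 annotated genes, so all 10 were measured. The samples were 3 libraries of ribosome-depleted total RNA from C57BL/6J mouse bone marrow-derived macrophages, primary cells of which the cytosol was used (1 µg of RNA each). All 3 carried the same treatment label, 100 ng/ml lipid A (the Toll-like receptor 4 agonist of bacterial lipopolysaccharide) for 0 minutes, so the libraries form 1 group and no conditions were compared. The libraries were labelled biological replicates 1, 2 and 3 with separate biosamples but the same donor label, and age and sex were not recorded. Nothing showed that they came from separate animals, so each SD below describes how far these 3 libraries lay apart and may reflect handling alone.

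Lipid-laden macrophages take in lipoproteins and dying cells, break down their cholesteryl esters and triglycerides in lysosomes, and export, burn or re-esterify the products into droplets. TREM2 is a surface receptor that binds lipids and apolipoproteins and signals through the adaptor TYROBP, and it is known for maintaining this program in fat tissue, atherosclerotic plaques and brain. The other 8 genes encode a lipoprotein component (Apoe), extracellular and lysosomal lipases (Lpl, Lipa), carriers and coats of intracellular lipid (Fabp4, Fabp5, Plin2) and glycoproteins induced with the program (Gpnmb, Spp1).

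Levels are given in TPM (transcripts per 1000000 of the library), which corrects for transcript length, so genes can be compared with one another; gene positions are those of GENCODE M21 on mm10. A gene was called detected at a TPM of at least 1 in all 3 libraries. All 10 genes were detected, against 41.0% of the 22028 protein-coding genes (9023). All 10 also lay among the 903 of those 9023 genes with the highest mean TPM, which begin at a TPM of 38.5. The 91 highest genes, 1.01% of the 9023, begin at a TPM of 296 and contained 7 of the 10. The median of the 10 means was 549 TPM, against 7.19 for detected protein-coding genes. Together the 10 genes held 2.59, 2.68 and 2.91% of all expected counts in replicates 1, 2 and 3, or 2.73 ± 0.164% (SD, n = 3). The 95% Wilson intervals of these shares were 2.586 to 2.599%, 2.674 to 2.684% and 2.906 to 2.915%, so the libraries differed by more than counting error. These intervals cover counting error only. Gpnmb alone held 56.6 ± 1.59% of the counts of the 10 genes. Counts, unlike TPM, grow with transcript length, and Gpnmb is long (mean length 3591 bases, against 1042 for Apoe). In TPM its part was smaller, at 2383, 2293 and 2471 of sums over the 10 genes of 8674, 7479 and 8360 in replicates 1, 2 and 3.

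**Figure D1:**
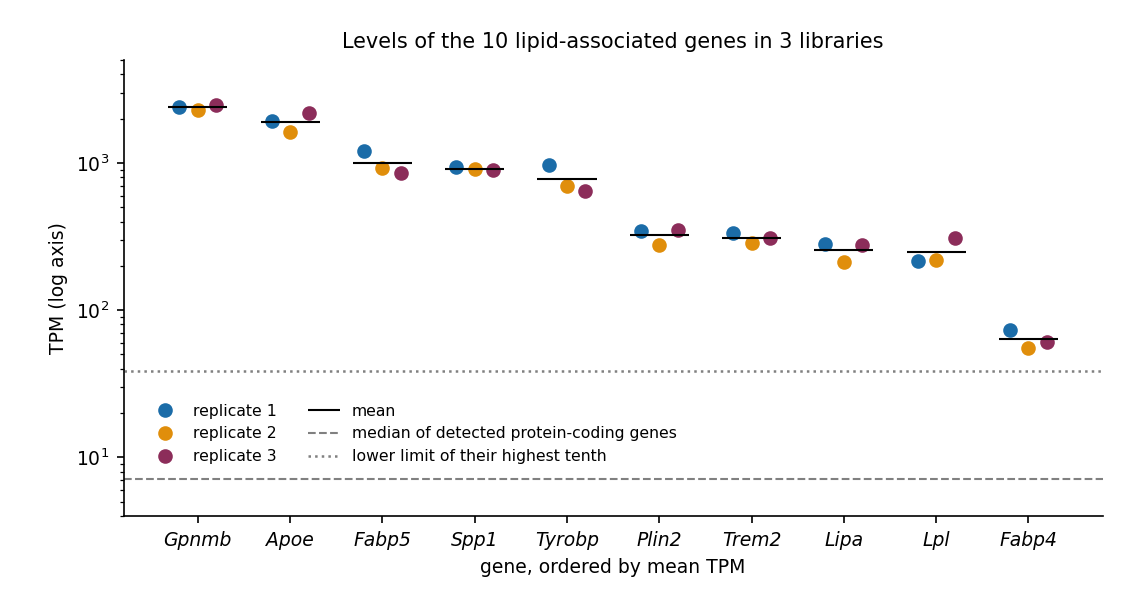
TPM of the 10 genes in each library on a log axis, 1 point per library and a bar at the mean of the 3. The dashed line marks the median of detected protein-coding genes (7.19) and the dotted line the level at which the 903 highest of them begin (38.5), which all 30 points exceed.

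Expected counts over genes came to 26318761, 41897257 and 56290298 in replicates 1, 2 and 3, and any pair of libraries differed by more than sampling noise (chi-square per degree of freedom 40.6 to 63.8 over 13904 to 15650 genes), so no library was a copy of another. All 12 macrophage markers were detected, from Lyz2 at 4792 ± 1020 TPM to Itgam at 22.0 ± 1.27. Replicate 3 stood apart in the nuclear noncoding RNAs, with Malat1 at 224, 207 and 1008 TPM and Neat1 at 18.7, 16.7 and 92.5 in replicates 1, 2 and 3. Protein-coding genes took 26.2, 22.0 and 21.7% of all TPM in the same order, and 82.6% of detected protein-coding genes were highest in replicate 1. In bulk RNA, fewer cells of a type and less RNA per cell cannot be told apart.

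Apoe (ENSMUSG00000002985.16, chr7:19696109-19699188, minus strand) encodes apolipoprotein E, the ligand through which lipoprotein remnants are cleared and a main acceptor of cholesterol leaving macrophages. It stood at 1918, 1610 and 2173 TPM in replicates 1, 2 and 3, 1900 ± 282 on average, and ranked 10 among protein-coding genes. Replicate 3 was the highest and replicate 2 the lowest. Its neighbours on chromosome 7 were far lower. The apolipoprotein genes Apoc2, an activator of lipoprotein lipase, and Apoc1 stood at 10.7, 5.41 and 6.02 TPM and at 1.25, 0.27 and 0.63 TPM. Apoc4 was below 1 in every library (0.203 ± 0.0902), and the mitochondrial import gene Tomm40, on the other side of Apoe at a distance of 2124 bases, stood at 8.21 ± 0.749. Apoe therefore exceeded Apoc2 by 279 ± 92.0 times within libraries. The Apoc1 values rest on 12, 5 and 15 counts and give no stable ratio.

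Lpl (ENSMUSG00000015568.16, chr8:68880491-68907448, plus strand) encodes lipoprotein lipase, which is secreted and frees fatty acids from circulating triglycerides. It stood at 215, 219 and 311 TPM (248.7 ± 54.4). Replicates 1 and 2 were close and replicate 3 was the highest. The genes of proteins that act on the enzyme were lower or had 0 counts. Sel1l and Lmf1, which help it fold in the endoplasmic reticulum, stood at 28.5 ± 2.47 and 4.29 ± 0.439 TPM, and Angptl4, its secreted inhibitor, at 2.93, 1.52 and 3.36 TPM. Gpihbp1, the endothelial protein that anchors the enzyme to capillaries, had 0 counts in every library, as did the inhibitor gene Angptl8. A count of 0 allows up to 3 counts, or 0.114, 0.0716 and 0.0533 CPM (expected counts per 1000000 of the library) in replicates 1, 2 and 3.

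The list of lipoprotein partners of APOE and LPL had 11 of 23 genes detected, 11 under a TPM of 1 throughout and 1 (Apoc1) on both sides, with a median of 0.717 TPM over all 23. Among all protein-coding genes 41.0% were detected, which is the share to set beside this count and those of the lists below. Pltp, the phospholipid transfer protein (189 ± 17.04), Lrp1, an endocytic receptor for apolipoprotein E (161 ± 25.2), and Abca1, the exporter that loads cholesterol onto lipid-poor apolipoproteins (106 ± 13.7), led the list. The exporter Abcg1 stood at 48.9 ± 3.81. Among the other receptors, Scarb1 stood at 19.1 ± 2.34 TPM. Vldlr and Lrp8, receptors for apolipoprotein E in other tissues, were below 1 in every library (0.0300 ± 0.0100 and 0.333 ± 0.0737). The structural apolipoprotein genes Apob and Apoa1 had 0 counts.

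Lipa (ENSMUSG00000024781.16, chr19:34492318-34527474, minus strand) encodes lysosomal acid lipase, which hydrolyses cholesteryl esters and triglycerides delivered to lysosomes. It stood at 280, 214 and 278 TPM (258 ± 37.7), with replicate 2 the lowest. All 13 genes on the list of lysosomal cholesterol and lipid exit were detected, with a median of 55.9 TPM. Highest were the lysosomal membrane protein Lamp1 (657 ± 113), the cholesterol carrier Npc2 (201 ± 32.4), which takes over cholesterol freed by the lipase, and Soat1, the enzyme that esterifies it again (175 ± 4.43). Npc1, which passes cholesterol out of the lysosome, stood at 73.3 ± 2.70, and Nceh1, a neutral cholesteryl ester hydrolase, at 93.2 ± 3.68. The protein-coding neighbours of Lipa differed widely. Ch25h, which makes 25-hydroxycholesterol, was listed at 0.05, 0.04 and 0.04 TPM on 3, 4 and 5 counts, whereas the interferon-induced gene Ifit2 stood at 147, 56.2 and 66.0 TPM.

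Trem2 (ENSMUSG00000023992.14, chr17:48346401-48354147, plus strand) stood at 332, 288 and 308 TPM (310 ± 22.1), 1 of the smaller spreads among the 10 genes. Its adaptor gene Tyrobp (ENSMUSG00000030579.10, chr7:30413760-30417585, plus strand) stood at 976, 695 and 647 TPM (773 ± 177), with replicate 1 well above the others. The adaptor exceeded the receptor in every library, by 2.94, 2.41 and 2.10 times. The related adaptor gene Hcst (DAP10) lies 126 bases from Tyrobp on the opposite strand and stood at 11.6, 9.73 and 8.44 TPM, so Tyrobp was 77.4 ± 6.35 times higher. In a second quantification of the same libraries, described below, it was 66.1 ± 2.92 times higher. None of the other receptor genes of the Trem2 cluster came near Trem2. Of 5 that matched the annotation, Treml2 was detected (4.45, 2.90 and 2.53 TPM) and 4 were below 1 in every library, among them Treml1, 5768 bases from Trem2, at 0.17, 0.10 and 0.32 TPM and Trem1, an activating receptor on neutrophils and monocytes, at 0.02, 0.01 and 0.04.

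All 18 genes on the list of TREM2 and TYROBP signalling were detected, with a median of 25.8 TPM. The 3 highest were Ms4a4a, a membrane protein gene linked to soluble TREM2 (163 ± 38.5), the adaptor Grb2 (97.4 ± 16.6) and the phosphoinositide 3-kinase adaptor Pik3ap1 (92.5 ± 6.88). Syk, the kinase that docks on phosphorylated TYROBP, stood at 62.1 ± 6.23, and the downstream phospholipase gene Plcg2 at 17.3 ± 2.55. Adam10 and Adam17, proteases that shed TREM2 from the surface, stood at 21.3 ± 2.60 and 25.2 ± 5.22.

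A share of the Trem2 transcripts carried another coding sequence. Trem2-201, with 681 coding bases, took 75.2, 77.0 and 75.9% of the gene's TPM in replicates 1, 2 and 3, and Trem2-202, with 747, took 23.8, 22.0 and 21.4%. The kallisto-format tables, a second quantification of the same libraries, gave 74.8 ± 1.47 and 22.3 ± 1.90%. In Trem2-202, exon 4 begins 55 bases earlier, at chr17:48351691-48351745 (mm10, plus strand). Because 55 is not a multiple of 3, the bases that follow are read in another frame. The sequences across the start of that exon are shown because they are what tells the 2 transcripts apart (GENCODE M21 transcripts, mm10; the last 24 bases of the exon before, the bases added in Trem2-202 in capitals, and the first 24 shared bases of exon 4).
Trem2-201: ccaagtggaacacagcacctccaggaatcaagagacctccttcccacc
Trem2-202: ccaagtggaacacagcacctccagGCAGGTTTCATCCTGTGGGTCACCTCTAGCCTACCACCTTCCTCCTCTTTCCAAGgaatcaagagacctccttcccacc

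Gpnmb (ENSMUSG00000029816.10, chr6:49036546-49070929, plus strand) encodes a membrane glycoprotein of lysosomes and melanosomes and was the highest of the 10 genes. It stood at 2383, 2293 and 2471 TPM (2382 ± 88.8) and ranked 8 among protein-coding genes. Its relative Pmel, the melanosome fibril protein, was below 1 in every library (0.09, 0.1 and 0.12 TPM). Transcripts for proteins that GPNMB is known to bind were detected, with the integrin gene Itgb1 at 107 ± 8.59, Cd44 at 54.9 ± 5.21 and the syndecan gene Sdc4 at 45.5 ± 7.84 TPM. The neighbouring gene Malsu1, 2865 bases away, stood at 1.91 ± 0.504.

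A minor Gpnmb transcript ends in another last exon. Gpnmb-201, with 1722 coding bases, took 94.0, 93.1 and 91.4% of the gene's TPM, and Gpnmb-203, with 1578, took 5.02, 6.04 and 6.78%. The kallisto-format tables gave Gpnmb-203 15.6 ± 2.66%, so its share depended on the quantification. The transcripts share exon 10 and then part, Gpnmb-201 continuing at chr6:49056161-49058182 and Gpnmb-203 at chr6:49070117-49070929 (mm10, plus strand). The sequences show the joint, with the last 24 bases of exon 10 in lower case and the next exon in capitals, for Gpnmb-203 up to its stop codon (GENCODE M21).
Gpnmb-201: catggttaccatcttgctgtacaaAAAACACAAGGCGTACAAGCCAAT
Gpnmb-203: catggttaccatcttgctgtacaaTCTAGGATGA

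Spp1 (ENSMUSG00000029304.14, chr5:104435118-104441050, plus strand) encodes osteopontin, a secreted phosphoprotein that binds integrins and CD44. It stood at 941, 903 and 899 TPM (914 ± 23.1), the lowest relative spread of the 10 genes on this scale (2.53% of the mean). The related bone matrix genes of the same cluster, Ibsp, Dmp1, Dspp and Mepe, had 0 counts in every library. Of 12 genes on the list of osteopontin relatives and receptors, 7 were detected, 4 were below 1 in every library and 1 (Itga9) lay on both sides. Itgb1, Cd44 and Itgb5 (44.5 ± 5.95) were the 3 highest, and Itgav and Itgb3, which together form a receptor for osteopontin, stood at 11.6 ± 2.00 and 4.33 ± 1.08 TPM. A locus of type TEC (not yet tested experimentally) that overlaps Spp1 on the same strand, Gm42793, held 17, 21 and 163 counts, against 52487, 91093 and 118122 for Spp1.

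Plin2 (ENSMUSG00000028494.12, chr4:86648386-86670060, minus strand) encodes perilipin 2, the main coat protein of lipid droplets in macrophages. It stood at 345, 279 and 351 TPM (325 ± 40.1), with replicate 2 the lowest. The related coat gene Plin3 stood at 13.8 ± 1.81, and Plin2 was 23.8 ± 4.33 times higher within libraries. Plin1 had 0, 1 and 0 counts, Plin5 0, 0 and 2, and Plin4 stood at 0.01, 0 and 0.04 TPM. The list of lipid droplet and neutral lipid genes had 19 of 29 members detected and 10 below 1 in every library, with a median of 5.42 TPM. The 3 highest were the fatty acid and lipoprotein receptor gene Cd36 (85.5, 102 and 154 TPM), the seipin gene Bscl2 (23.7 ± 4.61) and the carnitine transferase gene Cpt1a (20.8 ± 3.73). The triglyceride lipase gene Pnpla2, whose product works at the droplet that perilipins cover, stood at 16.0 ± 1.83 and its cofactor Abhd5 at 9.11 ± 1.55. Of the triglyceride-forming enzymes, Dgat1 stood at 2.75 ± 0.199 and Dgat2 at 0.11, 0.06 and 0.12 TPM, whereas Soat1, which forms cholesteryl esters, was 63.9 ± 5.80 times higher than Dgat1. The kallisto-format tables gave 82.6 ± 11.6 times, so the size of this ratio depended on the quantification.

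Fabp5 and Fabp4 encode fatty acid-binding proteins that carry fatty acids through the cytosol, named after epidermis and adipocyte, and they lie on chromosome 3 (ENSMUSG00000027533.10, chr3:10012548-10016607, plus strand, and ENSMUSG00000062515.3, chr3:10204088-10208576, minus strand). Fabp5 stood at 1209, 923 and 859 TPM (997 ± 186), with replicate 1 the highest. Fabp4 was the lowest of the 10 genes at 73.5, 55.6 and 61.1 TPM (63.4 ± 9.21), also with replicate 1 the highest. Fabp5 was 16.4, 16.6 and 14.1 times higher than Fabp4 in the 3 libraries. Of the 13 other genes of the family, Fabp3, the heart form, was detected (10.5, 5.50 and 4.98 TPM) and 12 were below 1 in every library. Among these, 9 had 0 counts in every library, including Fabp9 and Fabp12, which flank Fabp4, and Pmp2.

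The coding sequences of Fabp4 (396 bases) and Fabp5 (405 bases) were identical at 61.1% of 406 aligned positions, and their longest identical run was 12 bases. The most alike stretch of 60 coding bases is shown because it bears on whether reads of the 2 genes could be mixed. It covers coding bases 55 to 114 of Fabp4-201 and 61 to 120 of Fabp5-201 (GENCODE M21), crosses an exon boundary in each, and has 44 identical bases, in capitals.
Fabp4: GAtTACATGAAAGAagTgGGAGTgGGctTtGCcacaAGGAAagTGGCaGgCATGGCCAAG
Fabp5: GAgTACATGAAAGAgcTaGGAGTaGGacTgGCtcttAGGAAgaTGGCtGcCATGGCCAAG

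Near-identical copies were looked for among the annotated transcripts of GENCODE M21 with the leading transcript of each gene. They were taken as alignments of at least 300 bases at 85% identity or more. Fabp5 had 5 processed pseudogenes of this kind, which together held 38, 308 and 269 counts against 43445, 60378 and 74205 for Fabp5. Gm6166 and Gm14328 held all of these counts, so a small part of Fabp5 reads may be assigned to copies or the reverse. Plin2 had 1 pseudogene copy with 2, 0 and 0 counts. No such copy was found for the other 8 genes, but sequence outside annotated transcripts was not searched.

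**Figure D2:**
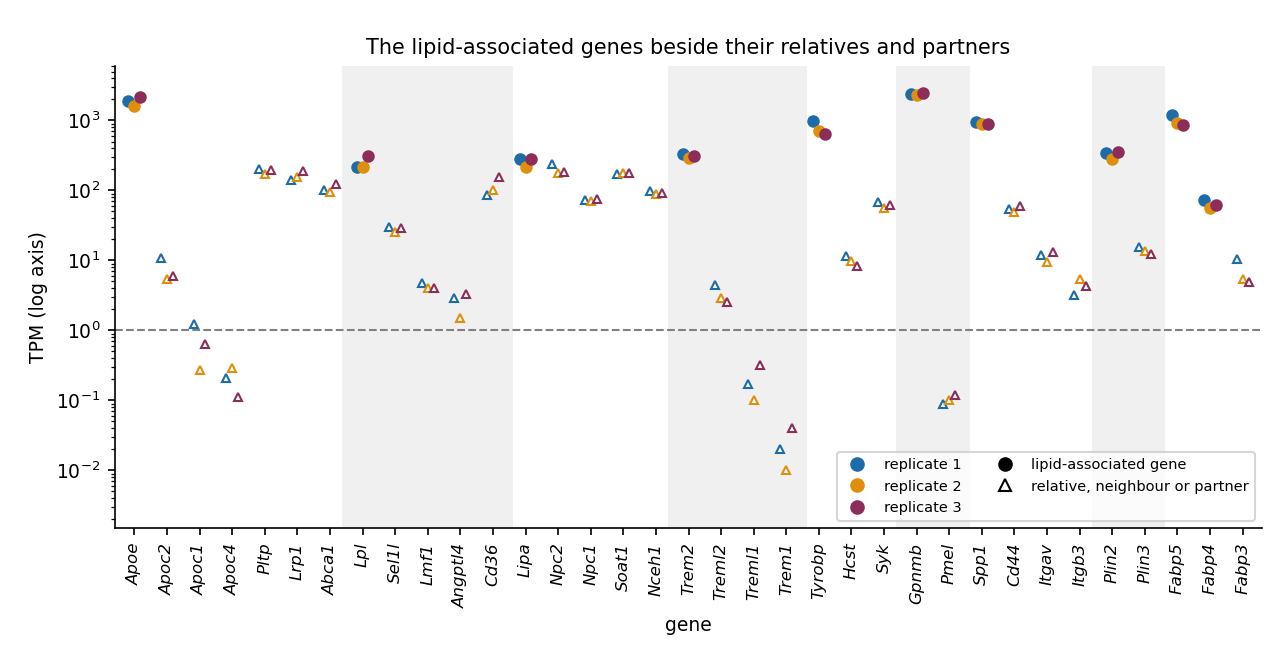
TPM in each library (log axis) of the 10 genes, filled circles, beside relatives, genomic neighbours and partner genes, open triangles. Shaded and plain bands group each gene with its own set, and the dashed line marks a TPM of 1. Apoe, Tyrobp, Gpnmb and Fabp5 stand well above their relatives, whereas Lipa lies close to Npc2 and Soat1.

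In order of mean TPM the genes ran Gpnmb, Apoe, Fabp5, Spp1, Tyrobp, Plin2, Trem2, Lipa, Lpl and Fabp4. Of the 9 neighbouring pairs, 5 had library ranges that did not overlap, namely Gpnmb over Apoe, Apoe over Fabp5, Tyrobp over Plin2, Trem2 over Lipa and Lpl over Fabp4. Fabp5 and Spp1, Spp1 and Tyrobp, Plin2 and Trem2, and Lipa and Lpl overlapped, and in each of these pairs the library order reversed in at least 1 library. With TPM rescaled over protein-coding genes alone, 3 pairs did not overlap, since Gpnmb and Apoe, and Trem2 and Lipa, then shared part of their ranges. Rescaling leaves the order within a library as it is, and Gpnmb stayed above Apoe in each library by 1.24, 1.42 and 1.14 times.

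As a count-based measure of spread, the SD of log2 CPM over the 3 libraries was taken from edgeR with TMM scaling. Its median over the 10 genes was 0.15, against 0.0971 for detected protein-coding genes and 0.0870 for the 2075 of these at least as high as Fabp4. Lpl varied most, with an SD of 0.38, larger than in 97.4% of detected protein-coding genes, followed by Apoe at 0.25 (92.4%), Lipa at 0.18 (84.1%) and Plin2 at 0.17 (82.1%). Spp1 had the lowest SD of the 10 genes, 0.10, which was still larger than in 54.1% of detected protein-coding genes. Below Lpl, this order rests on replicate 3. Without it the SD was 0.18 for Lpl, 0.15 for Tyrobp, 0.13 for Spp1, 0.11 for Lipa, 0.060 for Plin2 and 0.011 for Apoe. The median then fell to 0.106 for the 10 genes and to 0.0683 for detected protein-coding genes. On log2(TPM + 1) over all 3 libraries, Tyrobp varied most (SD 0.32), ahead of Lpl (0.30), so the first place of Lpl holds on the count scale.

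The difference between libraries also varied with transcript length. In TPM, 4 of the 10 genes were higher in replicate 3 than in replicate 1 (Lpl, Apoe, Gpnmb and Plin2), against 12.9% of detected protein-coding genes, whose median log2 ratio of replicate 3 over 1 was -0.25. With TPM rescaled to protein-coding genes, 8 of the 10 were higher in replicate 3, all except Tyrobp and Fabp5, against 54.2% of those genes and a median of 0.02. Fabp4 counts among the 8 with a log2 ratio of only 0.0045 and was nearly level. Tyrobp and Fabp5 were lower in replicate 3 on every scale tried, with log2 ratios of -0.59 and -0.49 in TPM and -0.33 and -0.23 in TMM-scaled CPM. Lpl, Apoe and Gpnmb were higher on every scale. Their log2 ratios were 0.53, 0.18 and 0.05 in TPM and 0.75, 0.44 and 0.25 in TMM-scaled CPM. Lipa, Trem2, Spp1 and Fabp4 turned from below 0 in TPM to above 0 in TMM-scaled CPM, and Plin2 turned below 0 in kallisto-format TPM (-0.02).

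Among detected protein-coding genes the median log2 TPM ratio of replicate 3 over 1 ran from -0.50 for 297 genes under 700 bases to -0.16 for 2108 genes of 4000 bases or more. In plain CPM it ran from -0.31 to -0.05. Across these 9023 genes Spearman's rho between length and ratio was 0.375 in TPM and 0.336 in CPM; genes share the same 2 libraries and are not independent replicates. Tyrobp, the shortest of the 10 genes at a mean length of 587 bases, and Fabp5 (994 bases) lay between the quartiles of genes of their length, Tyrobp in CPM at the lower one (-0.43). The other 8 lay above the upper quartile of their length class on both scales, where 25% of genes lie by construction. The mean fragment length implied by the kallisto-format tables was 247, 228 and 210 bases in replicates 1, 2 and 3, and its part in these differences was not tested.

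**Figure D3:**
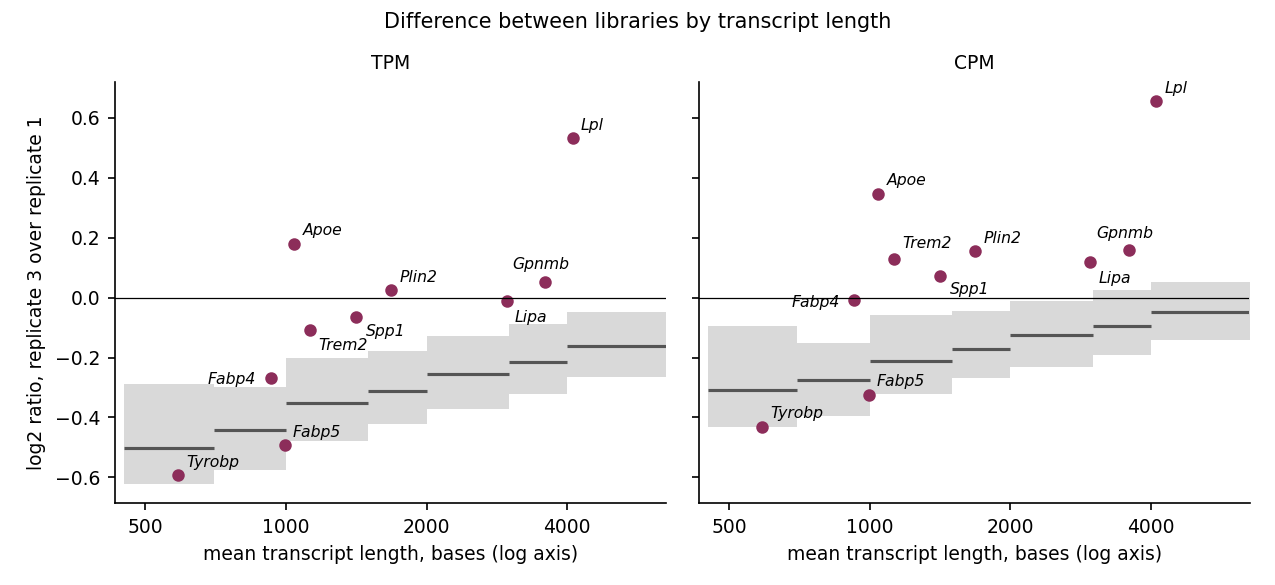
Log2 ratio of replicate 3 over replicate 1 against mean transcript length (log axis), in TPM (left) and CPM (right). Grey boxes show the middle range between quartiles and dark lines the median of detected protein-coding genes in 7 length classes, the outer classes being cut at the edges of the plot; points are the 10 genes. Lpl lies highest (0.53 and 0.66) and Tyrobp lowest (-0.59 and -0.43).

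Each of the 10 genes had the same leading transcript in all 3 libraries by its deposited share of the gene (IsoPct), as did 91.3% of 8373 detected protein-coding genes with more than 1 transcript. The kallisto-format tables named the same leader for all 10. The leader held over 90% of the gene for Lpl (99.6 ± 0.241%), Fabp5 (99.7 ± 0.263%), Fabp4 (99.1 ± 0.933%), Spp1 (96.2 ± 0.225%) and Gpnmb (92.8 ± 1.37%). It held 88.9 ± 0.631% for Lipa, 83.3 ± 0.841% for Plin2, 76.1 ± 0.898% for Trem2, 70.0 ± 8.10% for Tyrobp and 66.7 ± 5.28% for Apoe. Lipa-202, with 10.7 ± 0.544% of Lipa, has the same 1191 coding bases as the leader.

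Apoe was the gene with the least of its TPM on coding transcripts, 76.2 ± 3.06%, against a median of 99.2% over the 10 genes. Apoe-209 (60.9, 68.1 and 71.1%) and Apoe-206 (11.4, 8.35 and 7.43%) have the same 933 coding bases and differ outside them, so these shares say nothing of the protein. Apoe-202, typed as a processed transcript without a coding sequence, took 27.05, 22.93 and 21.02%, and 28.2 ± 4.11% in the kallisto-format tables. It lacks 386 bases of the last exon, chr7:19696338-19696723 (mm10, minus strand), of which 341 are coding in Apoe-206, and the stretch begins with GT and ends with AG, as most introns do. Its upstream edge is shown because it is where Apoe-202 leaves the coding transcripts, with 24 bases that both keep and the first 12 absent bases in capitals (GENCODE M21).
Apoe: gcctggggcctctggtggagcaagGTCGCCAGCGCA

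Tyrobp was the gene whose transcript shares depended most on the quantification. The RSEM-format tables gave Tyrobp-202 78.8, 68.5 and 62.8% and Tyrobp-201 20.7, 30.8 and 36.6%, whereas the kallisto-format tables gave Tyrobp-202 97.99 ± 1.06%. Tyrobp-202 starts upstream of Tyrobp-201, and the coding sequence of Tyrobp-201 (342 bases) is contained in that of Tyrobp-202 (421 bases). Because 421 bases are not a whole number of codons, the annotated coding sequence of Tyrobp-202 is not a complete one. The gene levels given above are sums over all transcripts of the gene. In Plin2, the short transcript Plin2-207 took 5.34 ± 0.0100% in the RSEM-format tables and 12.2 ± 0.943% in the kallisto-format tables. It is typed as coding, but its 589 annotated coding bases are not a whole number of codons either. The noncoding Plin2-208 took 10.4 ± 1.10 and 10.3 ± 0.954%.

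**Figure D4:**
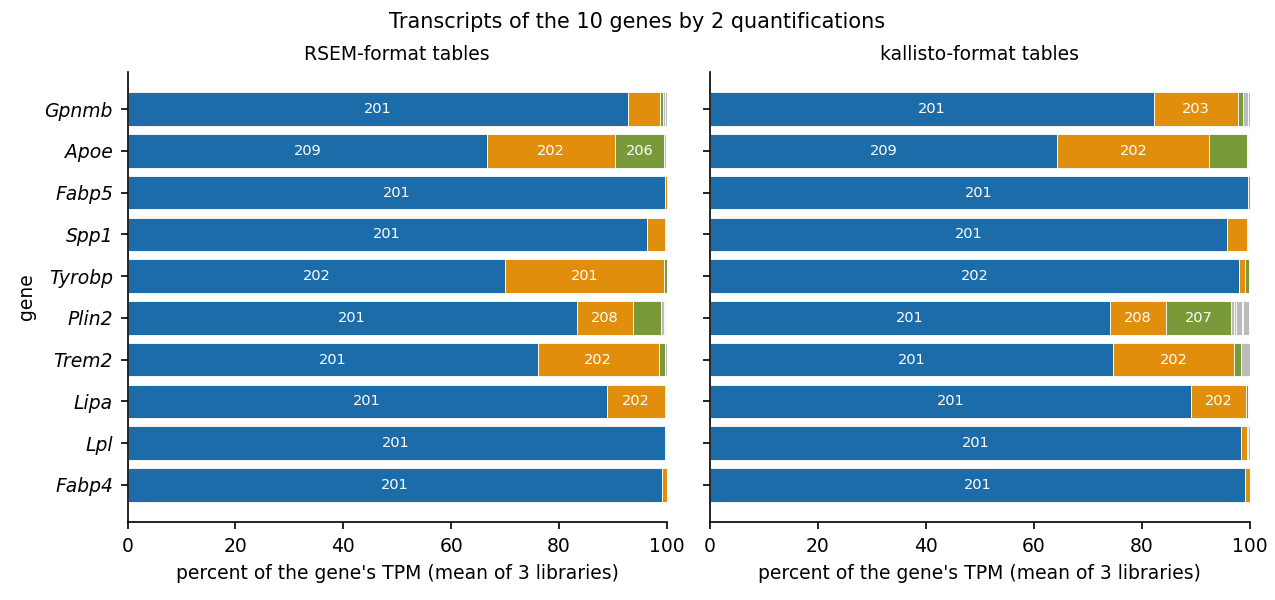
Mean share over 3 libraries of each transcript in the TPM of its gene, in the RSEM-format tables (left) and the kallisto-format tables (right). Numbers in the bars are transcript names after the hyphen, and colours mark the 3 leading transcripts by the left panel (blue, orange and green in that order), with the rest in grey. The panels differ most for Tyrobp, where Tyrobp-202 holds 70.0 and 97.99%.

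Transcripts typed as retained intron, which keep an intron that the mature mRNA lacks, were annotated for 7 of the 10 genes. Their share of the gene was highest in replicate 3 for all 7 in each quantification, and 76.8% of 5690 detected protein-coding genes with such a transcript showed the same in the RSEM-format tables. For Trem2 the share was 0.753, 0.716 and 2.31%, for Fabp4 0.422, 0.360 and 2.00%, and for Gpnmb 0.470, 0.415 and 1.55%. These transcripts can be long, and in expected counts they held 3.92, 3.67 and 11.1% of Trem2 and 2.47, 2.04 and 10.7% of Fabp4. The median over the 7 genes was 0.167, 0.136 and 0.610%, against 1.18, 0.988 and 3.97% over the 5690 genes. Malat1 and Neat1, given above, were also highest in replicate 3, and their relation to these shares was not tested.

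**Figure D5:**
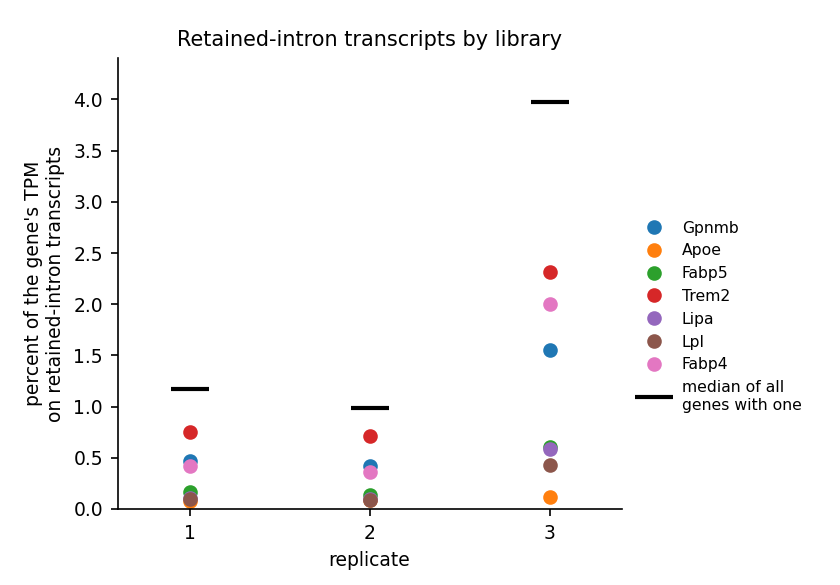
Percent of each gene's TPM on retained-intron transcripts in replicates 1, 2 and 3, for the 7 genes that have such a transcript. Black dashes mark the median over 5690 detected protein-coding genes with such a transcript; every gene is highest in replicate 3, and Trem2 is highest of the 7 there at 2.31%.

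Of 19 genes on the list of transcription regulators tied to macrophage lipid handling, 18 were detected, with a median of 10.05 TPM. The highest were Spi1 (PU.1, 61.5 ± 9.65) and Cebpa (41.4 ± 3.15). Pparg, the fatty acid-activated nuclear receptor known to drive Fabp4 in fat cells and macrophages, stood at 15.6 ± 2.05, and the liver X receptor genes Nr1h2 and Nr1h3, which induce Apoe, Lpl and Abca1, at 17.7 ± 2.19 and 6.33 ± 1.33. Of the lysosomal regulators that bind CACGTG and related sites, Tfe3 stood at 25.5 ± 4.38, Tfeb at 9.81 ± 1.33 and Mitf, a known activator of Gpnmb, at 9.64 ± 1.90. Ppara had 0 counts.

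Start-site windows of 300 bases (250 before to 50 after the start; RefSeq, GRCm38.p6) were listed for 6 of the 10 genes (9 windows, since Apoe and Spp1 had more than 1), and Lpl, Tyrobp, Fabp4 and Fabp5 had none. The motifs below were searched on both strands. GAGGAAGT, a form of the PU.1 site, was found in Spp1 alone of the 6 genes and in 3.20% of 32851 windows. CACGTG was found in Plin2 alone and in 7.15% of windows, and TGANTCA in Gpnmb and Trem2 and in 7.81%. TATAAA was found in 1 window each of Apoe, Lipa and Spp1 and in 13.6% of windows. The Apoe match lay in the window of the start site of Apoe-207, a transcript listed at 0% of Apoe in all 3 libraries of the RSEM-format tables. CCAAT was found in 4 of the 6 genes and GGGCGG in 2, at 37.4 and 35.7% of windows. A match is a description of the letters, not a bound site. The Spp1 and Plin2 stretches are shown with their match in capitals, because the factors that read such letters are named above. The matches begin 113 and 4 bases before the start, and the Plin2 match runs across the start.
Spp1, chr5:104434981-104435120, plus strand: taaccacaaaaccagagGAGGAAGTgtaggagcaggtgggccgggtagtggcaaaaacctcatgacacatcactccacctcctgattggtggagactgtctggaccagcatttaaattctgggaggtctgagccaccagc
Plin2, chr4:86670050-86670159, minus strand: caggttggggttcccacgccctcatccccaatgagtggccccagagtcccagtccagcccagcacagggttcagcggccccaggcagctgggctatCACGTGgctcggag

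Several of the 10 genes are also known from other cells, so markers of those cells were read beside them. Fabp4, Lpl and Plin2 are expressed in fat cells, and of 10 adipocyte markers 9 stayed under a TPM of 1. The 1 marker that was detected made up most of the summed levels of 2.64 to 4.18 TPM. The defining genes Adipoq, Lep, Cfd and Cidec had 0 counts. Fabp4 is also expressed in capillary endothelium. Of 10 endothelial markers 8 were below 1 in every library, with Pecam1 at 0.230 ± 0.0700, Cdh5 at 0.133 ± 0.0379, and Tek and Cldn5 at 0 counts, while Vwf stood at 10.9, 13.5 and 9.58 TPM and Kdr at 3.46, 2.93 and 2.00. The summed endothelial level was 12.3 to 17.1 TPM.

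Spp1 is expressed by bone-forming cells, and all 10 osteoblast and stromal markers were below 1 in every library, with summed levels of 0.670 to 0.690 TPM and Ibsp, Bglap, Sp7 and Alpl at 0 counts. Gpnmb is named after a melanoma line, and all 8 melanocyte markers were below 1, summing to 0.12 to 0.13 TPM. Gpnmb and Spp1 are expressed in osteoclasts, macrophage relatives that resorb bone. Of 10 osteoclast markers 3 were detected, led by the proton pump subunit Atp6v0d2 (53.1 ± 8.57) and Nfatc1 (11.9 ± 1.67), while Acp5 and Ctsk stood at 1.06 ± 0.271 and 1.06 ± 0.116. Atp6v0d2 is also on the list of lipid-associated macrophage genes. The calcitonin receptor gene Calcr had 0, 0 and 1 counts and the fusion gene Ocstamp 0 in every library. The summed osteoclast level was 62.0 to 77.4 TPM.

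Of the other marker lists, 3 of 10 neutrophil markers were detected (summed 20.4 to 20.9 TPM, led by S100a9 and S100a8), 1 of 8 dendritic (1.95 to 2.58), 1 of 8 erythroid (1.44 to 2.09) and 0 of 12 lymphoid (0.68 to 0.9). The part of other cell types in the levels of the 10 genes was not tested beyond these values.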

How the data were processed

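Per the labels, total RNA of the cytosolic fraction was ribosome-depleted and sequenced in 3 libraries; values refer to mm10 and, per the deposited notes, GENCODE M21. Per the file headers, gene and transcript tables have the columns RSEM writes and a further transcript table those kallisto writes; aligner and versions: not given in the sources used here. The authors deposited expected counts (estimated reads, here rounded to whole numbers), TPM, and IsoPct, the percent of a gene's transcripts on each isoform. The tables also held 26345 entries that are not annotated genes (0.0731 to 0.406% of counts); they were left out. Symbols were matched exactly.

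A TPM of 1 in all 3 libraries was the minimum for detection. With 1 group, levels, SDs and counts are descriptions. The spread used edgeR 4.0.16 (TMM, filterByExpr, prior count 2, intercept only), tested on simulated data, with DESeq2 1.42.0 size factors as an alternative. Copies were found with blastn 2.17.0; figures used matplotlib 3.10.9. The named genes are the 10 members and the 3 highest of each list by mean TPM. Some neighbours, paralogs, ligands, receptors, cofactors and inhibitors of the members are also named, though not every neighbour in the genome. Further list genes are named for a known role, with values known. Members, lists and motifs were chosen with earlier results of these data known. A few list genes are counted with their lists but not reported here by name.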

Additional observations from a re-analysis of the deposited data

How the results depend on the processing

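The count of genes detected, the count among the highest genes by level and the count led by 1 transcript were 10 under every alternative tried (other TPM minima and backgrounds, posterior mean, kallisto-format and rescaled TPM, and each library left out, where each applied). The median level was 239 TPM in the kallisto-format tables, where protein-coding genes took 8.93 to 11.1% of TPM, and 2345 with TPM rescaled to protein-coding genes; it was 493 to 580 when 1 library was left out. The rescaling also left 3 separate neighbouring pairs in place of 5, and 5 to 6 pairs were separate when 1 library was left out. The share of counts was 3.21% of protein-coding counts, and 2.64 to 2.80% when 1 library was left out. The median spread was 0.106 to 0.169 with 1 library left out and 0.210 on log2(TPM + 1). The coding share was 99.1 to 99.5% with 1 library left out, and the genes detected over the partner lists were 119 of 165, 104 at a minimum of 5 and 114 in the kallisto-format tables. The scales for the ratio of replicates 3 and 1 were chosen after seeing the data. No paired analysis was possible because the series holds 1 group. At 2361 counts and above in every library, counting error is at most 2.06% of a member's value.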

Other observations

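Beside the 10 genes, 30 of 31 other genes known from lipid-associated macrophages were detected, with a median of 157 TPM; Ch25h alone was below 1 in every library. The 3 highest were the ferritin genes Ftl1 (7726 ± 626) and Fth1 (6817 ± 1055) and the lysosomal protease gene Ctsd (3888 ± 267), so Gpnmb and Apoe were not the most abundant transcripts of this wider set. Within the set, levels reached down to the cystatin gene Cst7 (2.82 ± 0.738) and the integrin gene Itgax (1.35 ± 0.196), which were chosen for mention after their values were seen; Itgax is a marker of lipid-associated macrophages in fat tissue. The receptor tyrosine kinase gene Axl stood at 23.6, 11.3 and 12.9 TPM and the transcription factor gene Cebpb at 12.8, 4.54 and 6.46, both highest in replicate 1, as was Ifit2 beside Lipa. Of all detected protein-coding genes, 82.6% were likewise highest in replicate 1, so this sets none of them apart. Axl and Cebpb were also picked after their values were seen, and their differences between libraries were not tested.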
